A study of Rattus norvegicus with 53 samples.

Results

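Mitochondrial ribosomal proteins were taken as the genes whose only symbol in the array annotation starts with Mrpl or Mrps followed by a number, each read at its probe set with the highest mean over all arrays. These are 73 of the 14217 genes that have a single symbol on the array, and they carry 97 probe sets. All 73 were among the 11577 genes bright enough to be tested, with mean log2 levels from 7.50 for Mrpl38 to 12.1 for Mrpl17, while the lowest tested level of any probe set was 5.04. No member came near that limit, so no member lies just outside it. By their names 46 are large subunit proteins and 27 small subunit proteins. Mrps30 and Mrps18a, named for the small subunit, are placed in the large one in structures of the mammalian ribosome, which gives 48 and 25.

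The mitochondrial ribosome translates the few proteins encoded by mitochondrial DNA, all of them core subunits of the respiratory chain and the ATP synthase. All of its proteins are encoded in the nucleus, made in the cytosol and imported. It descends from a bacterial ribosome: some of its proteins have bacterial relatives, and others are called mitochondria specific here. Mrps18a and Mrps18b are counted among the latter by their place in the ribosome, although they, like Mrps18c, belong to the family of bacterial S18. Skeletal muscle is rich in mitochondria, and insulin is known to stimulate muscle mitochondrial protein synthesis.

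L6 is a line of rat skeletal muscle cells. Plates were differentiated into myotubes in low-serum medium and then kept serum free for 8 hours. At time 0 the medium of the treated plates was changed to serum-free medium with 20 nM insulin, while control plates were kept in serum-free medium without it. Plates of either culture were harvested every 20 min until 480 min, and 3 consecutive samples were pooled for each array, so hour 1 is the pool of the first 3 samples after the start and hour 8 that of the samples from 440 to 480 min. Time 0 was sampled in both cultures before any insulin. Every course was repeated on different days with the same cell line, giving 3 repeats, read here as the letters a, b and c of the labels. Of 53 arrays in 18 groups of culture and time, each group has 3, except the insulin culture of hour 3, where letter a is not analysed here and 2 are left. All groups share the line and the serum-free low-glucose medium, and the repeats are of 1 cell line and not of several animals. Values are log2 levels, and differences are insulin minus control on that scale unless another pair is named.

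Array medians lay between 6.30 and 6.37. Markers of cell types are counted here only where a probe set carries their symbol alone. All 17 myotube markers were tested, with a median level of 11.9, and 0 of them passed the test of insulin against control over hours 1 to 8, with 15 of 17 below 0 and a median of −0.093. At hours 1 and 2, 14 of 17 were below 0 (median −0.066). All 10 markers of proliferating cells were tested too, at levels from 7.46 to 10.2, and 0 passed, with 8 of 10 above 0 over hours 1 to 8 (median 0.030) and 10 of 10 at time 0 (median 0.20), whereas 0 of 6 endothelial and 1 of 6 adipocyte markers were bright enough. Of 8 macrophage markers 6 were tested and 1 passed, Cd68 at 0.14. The letters stood apart. At time 0, before insulin, the members' median difference between the plates set aside for insulin and the control plates was 0.14 in letters a and b alike and −0.093 in c. The 3′ probe set of beta-actin exceeded the 5′ one by a median of 0.439 in letter a, 0.768 in b and 0.680 in c, and by 0.541 in control and 0.694 in insulin arrays of hours 1 to 8; for GAPDH the medians were 0.0288 and 0.0176. Within letters the beta-actin values ranged from 0.335 to 0.549 in a, from 0.382 to 0.910 in b and from 0.586 to 0.812 in c. The part of these markers and of RNA ends in the results below was not tested.

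The 200 bases before the transcription start are shown for members whose difference over hours 1 to 8 passed the test with the same sign in all letters, as far as RefSeq promoters of build GRCr8 gave them. Of the 73 members 59 matched a promoter, and Mrps34 and Mrps24 are named only. Capitals mark matches on either strand to motifs of factors known from nuclear genes for mitochondria: GCGCATG (NRF-1), CCGGAAG (the ETS core that GABP binds), CACGTG (an E-box of Myc and Usf), AAGATGG (YY1) and GGGCGG (Sp1). All are written 5′ to 3′ on the gene's + strand. The first pair are genes higher with insulin, the second pair genes lower.
Mrps18b, chr20:2842806-2843005: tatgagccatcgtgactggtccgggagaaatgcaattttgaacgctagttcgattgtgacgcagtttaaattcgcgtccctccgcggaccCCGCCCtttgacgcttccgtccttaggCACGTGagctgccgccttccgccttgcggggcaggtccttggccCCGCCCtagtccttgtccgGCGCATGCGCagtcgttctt
Mrpl12, chr10:106256546-106256745: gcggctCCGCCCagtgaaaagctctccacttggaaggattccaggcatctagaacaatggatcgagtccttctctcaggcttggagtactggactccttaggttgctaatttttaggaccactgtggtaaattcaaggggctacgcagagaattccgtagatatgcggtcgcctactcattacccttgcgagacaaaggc
Mrpl34, chr16:18186247-18186446: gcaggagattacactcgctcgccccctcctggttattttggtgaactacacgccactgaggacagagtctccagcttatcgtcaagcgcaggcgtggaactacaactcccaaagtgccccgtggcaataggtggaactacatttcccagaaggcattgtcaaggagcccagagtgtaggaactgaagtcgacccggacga
Mrpl52, chr15:31852736-31852935: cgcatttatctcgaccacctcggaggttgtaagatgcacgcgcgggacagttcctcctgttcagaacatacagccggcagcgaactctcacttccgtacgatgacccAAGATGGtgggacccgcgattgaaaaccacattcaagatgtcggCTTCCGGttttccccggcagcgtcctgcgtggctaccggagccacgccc

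Mrps18b held the NRF-1 letters 20 bases before its start, in a stretch that reads the same on both strands and therefore matches in each, besides an E-box 83 bases and the Sp1 letters 110 and 39 bases before the start. Outside the shown stretch Mrps18b also held the ETS core from 3 bases before its start and the YY1 letters 28 bases after it. Mrpl12 held the Sp1 letters 194 bases before its start. Mrpl52 held the YY1 letters 93 bases and the ETS core 49 bases before its start, while Mrpl34 held none of these motifs in the shown stretch. A further ETS core of Mrpl52 began 1 base after its start, outside that stretch. Over the whole window of 250 bases before to 50 after the start, the ETS core was found in 20 of 59 members (33.9%) and in 9.22% of all 27457 promoters. The YY1 letters were found in 15 members (25.4%) and 7.3% of all promoters. The NRF-1 letters were found in 6 members (10.2%, against 3.94%), the E-box in 6 (10.2%, against 6.65%) and the Sp1 letters in 30 (50.8%, against 34.9%). In 13 members none of the 5 was found. A match is a description of letters, not a binding site.

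Insulin and control cultures were first compared over hours 1 to 8, which asks which members differed on average during the 8 hours with insulin. A member is called here where limma's adjusted p over all tested probe sets is under 0.05. Most members did not differ by this test, and those that did moved in both directions by small amounts. Of 73 members 8 were called (11%), against 12.2% of all tested probe sets: 4 were higher with insulin (5.48%, against 5.53%) and 4 were lower (5.48%, against 6.63%). These shares are near the background and are no result about these genes. In bulk RNA, fewer cells of a type and less RNA per cell cannot be told apart. The members' median difference was 0.020, with 45 above 0, and that of all tested genes −0.0038. Hour 3 enters these values and calls with 2 insulin and 3 control arrays, since letter a has no insulin array there. At that hour the members' median was 0.070 over all arrays, but −0.065 within letter b and −0.00018 within c. Of the 65 members that were not called, 48 had a 95% interval within 0.2 of 0, and the widest bound of any was 0.482. These intervals treat arrays of the same letter as independent, so they do not measure the spread between letters.

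**Figure D1:**
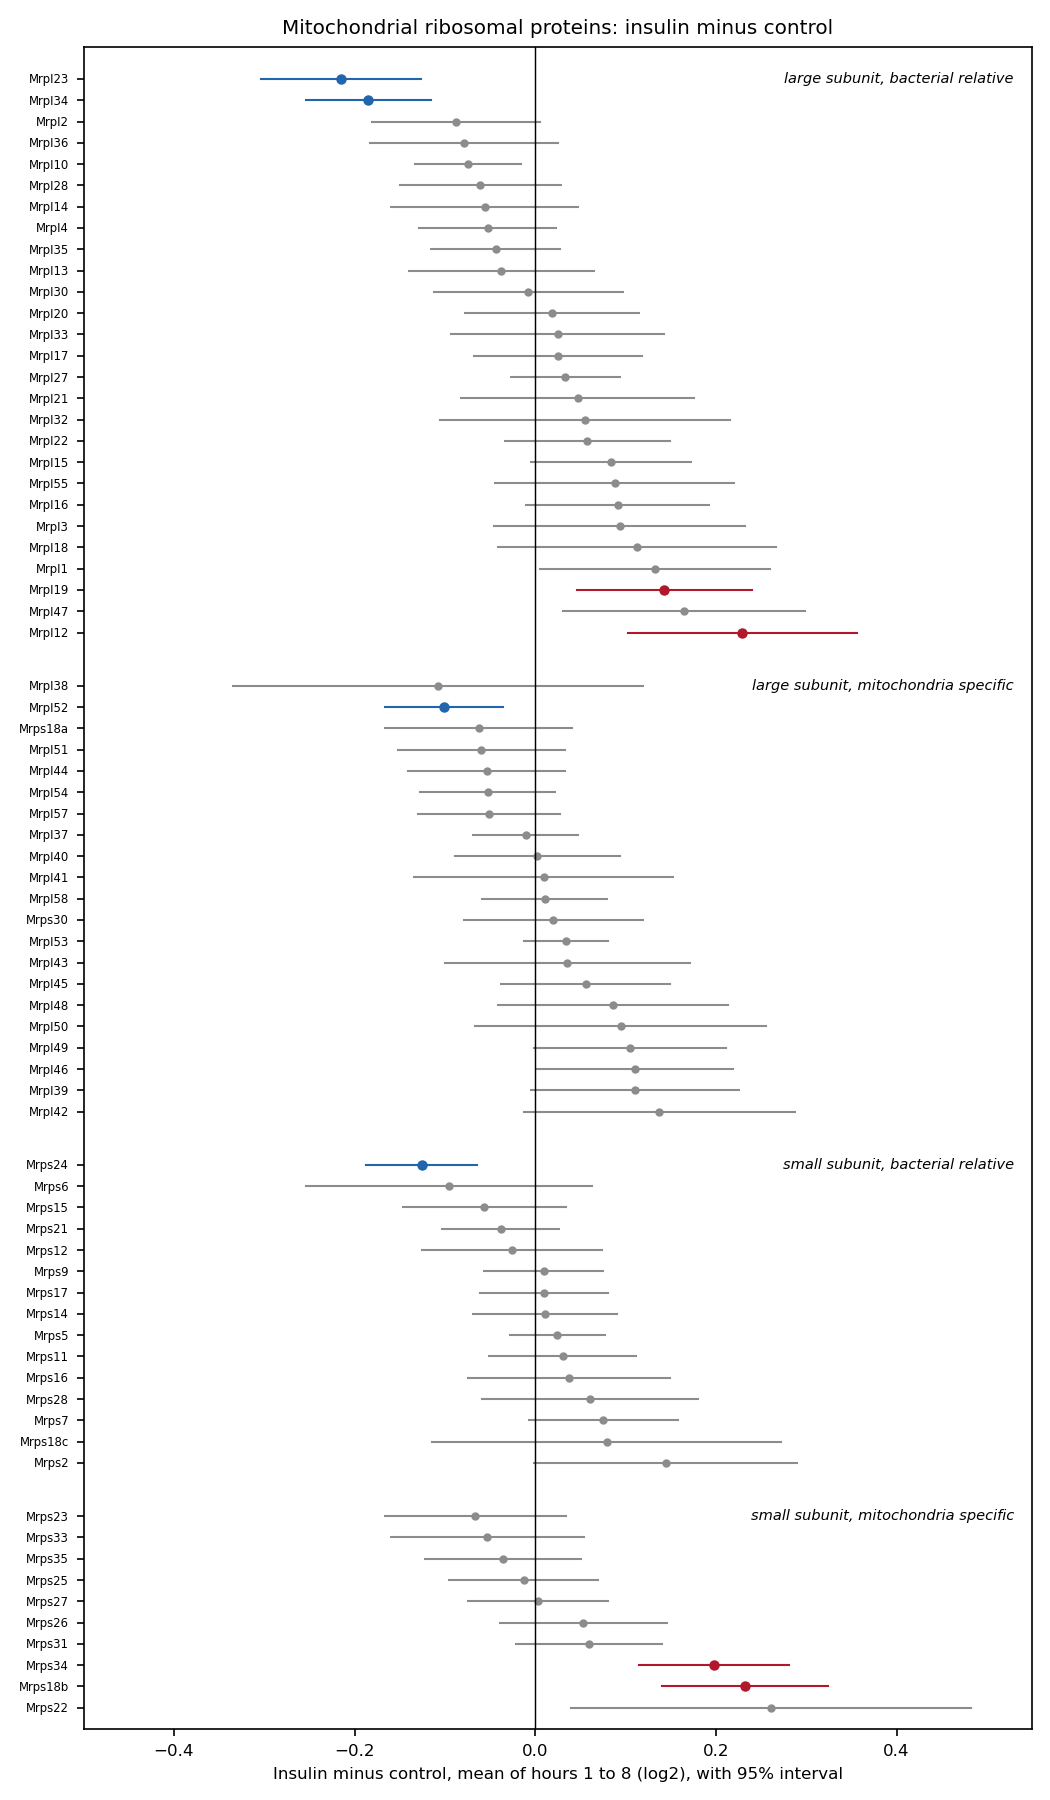
Insulin minus control on the log2 scale, averaged over hours 1 to 8, for each of the 73 members (points) with its 95% interval (lines), grouped by subunit and by whether the protein has a bacterial relative. Red points are the 4 members called higher, blue points the 4 called lower, and grey points the 65 not called; most grey intervals cross 0.

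Mrps18b, a small subunit protein of the bacterial S18 family, ranged from 9.30 to 9.88 with a median of 9.66 on the 24 control arrays of hours 1 to 8 and from 9.55 to 10.1 with a median of 9.88 on the 23 insulin arrays. The groups overlapped, but within pairs of the same hour and letter the insulin array was the higher in 20 of 23. Its difference was 0.23 ± 0.045 (SE; limma adjusted p = 0.000432), that is 1.17-fold, with 0.033 in letter a, 0.32 in b and 0.29 in c.

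Mrps34, a small subunit protein specific to mitochondria, lay between 9.34 and 9.89 (median 9.66) in control and between 9.63 and 10.1 (median 9.84) in insulin arrays. It was higher with insulin in 20 of 23 pairs although the ranges overlapped. The difference was 0.20 ± 0.041 (SE; limma adjusted p = 0.000865), from 0.071 in letter a to 0.27 in letter c.

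Mrpl12, the large subunit stalk protein to which translation factors bind, and which also associates with the mitochondrial RNA polymerase, lay between 10.3 and 11.2 (median 10.7) in control and between 10.6 and 11.3 (median 11.0) in insulin arrays. The ranges overlapped widely, since letters b and c were high in both cultures over hours 1 to 3, and 18 of 23 pairs were higher with insulin. The difference was 0.23 ± 0.063 (SE; limma adjusted p = 0.0119), with 0.20, 0.17 and 0.26 in letters a, b and c. Its dimmer second probe set gave 0.20 (adjusted p = 0.0170).

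Mrpl19, a large subunit protein with a bacterial relative, was the weakest of the members called higher, at 0.14 ± 0.048 (SE; limma adjusted p = 0.0437). Its letters did not share a sign: it was −0.076 in letter a, 0.26 in b and 0.18 in c, and 17 of 23 pairs were higher. In letter b its control arrays read 8.91 to 9.09 at hours 1 to 5 and 9.19 to 9.25 at hours 6 to 8. The insulin culture of letter b read 9.25 to 9.44 over hours 1 to 8. The part of this step of the control arrays in the difference of Mrpl19 was not tested.

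Among the members called lower, Mrpl34, a small protein of the large subunit with a bacterial relative, was the most regular. It lay between 8.93 and 9.36 (median 9.13) in control and between 8.78 and 9.18 (median 8.95) in insulin arrays. The ranges overlapped, yet 22 of 23 pairs were lower with insulin. The difference was −0.18 ± 0.034 (SE; limma adjusted p = 0.000221), with −0.21, −0.26 and −0.12 in letters a, b and c.

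Mrpl23, whose bacterial relative sits at the exit of the peptide tunnel, lay between 10.77 and 11.32 (median 10.91) in control and between 10.45 and 11.03 (median 10.72) in insulin arrays. The ranges overlapped and 18 of 23 pairs were lower. Its difference was −0.21 ± 0.044 (SE; limma adjusted p = 0.000743), but letter a stood at 0.024 against −0.39 in b and −0.27 in c. In letter b its control arrays read 11.07 to 11.32 at hours 0 to 5 and 10.81 to 10.92 at hours 6 to 8. The insulin culture of letter b read 10.57 to 10.94 over hours 0 to 8. The part of this step of the control arrays in the difference was not tested.

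Mrps24, a small subunit protein with a bacterial relative, was −0.13 ± 0.030 (SE; limma adjusted p = 0.00444), lower in 20 of 23 pairs and in every letter. Mrpl52, a large subunit protein specific to mitochondria, was −0.10 ± 0.032 (adjusted p = 0.0327), lower in 17 of 23 pairs, and its second probe set gave −0.15 (adjusted p = 0.00605). In both genes the control and insulin ranges overlapped: 9.83 to 10.3 and 9.72 to 10.3 in Mrps24, and 9.79 to 10.2 and 9.69 to 9.99 in Mrpl52.

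**Figure D2:**
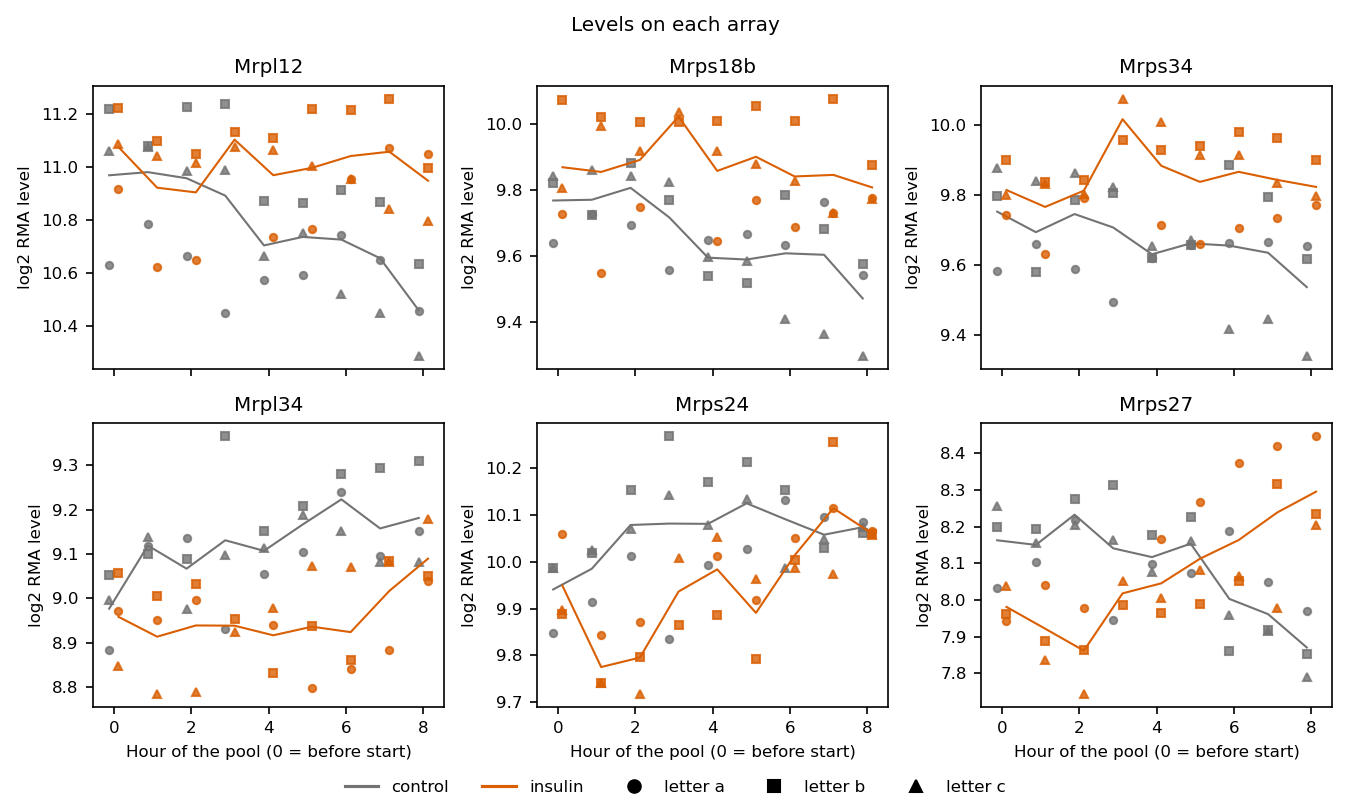
Log2 level of 6 members on each array (control grey, insulin orange; circles, squares and triangles for letters a, b and c) against the hour of the pool, with lines through the group means. Mrpl12, Mrps18b and Mrps34 separate in the later hours, Mrpl34 lies lower with insulin from hour 1, and Mrps27 crosses from below to above its control.

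The members called were spread over the classes of the ribosome. Of 27 large subunit proteins with a bacterial relative 2 were called higher (Mrpl12, Mrpl19) and 2 lower (Mrpl23, Mrpl34). Of 21 large subunit proteins specific to mitochondria 1 was lower (Mrpl52). Of 15 small subunit proteins with a bacterial relative 1 was lower (Mrps24), and of 10 counted as specific to mitochondria 2 were higher (Mrps18b, Mrps34). The 4 medians were 0.025, 0.010, 0.010 and 0.028.

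Related and specialised members were read beside these. The paralogs of Mrps18b did not share its call: Mrps18a was −0.063 ± 0.051 (SE; limma adjusted p = 0.476) and Mrps18c 0.079 ± 0.095 (adjusted p = 0.649). The difference between the paralogs was not tested. Mrpl58, a peptidyl-tRNA hydrolase built into the large subunit that releases stalled chains, was 0.010 ± 0.034 (adjusted p = 0.881), with a 95% interval from −0.059 to 0.079. Mrps30 was 0.020 ± 0.049 (adjusted p = 0.838), with an interval from −0.079 to 0.12.

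Among members not called, Mrps22, a small subunit protein specific to mitochondria, had the highest difference, 0.26 ± 0.11 (SE; limma adjusted p = 0.119), and is named after its values were seen. The insulin array was the higher in 21 of 23 pairs, but it also stood 0.30 ± 0.31 (SE) higher at time 0, before insulin. Mrpl38, the dimmest member, had −0.11 ± 0.11 (SE; adjusted p = 0.590), with 0.44 in letter a, −0.51 in b and −0.20 in c. Its control arrays of letter b read 8.12 to 8.55 at hours 0 to 5 and 6.72 to 7.12 at hours 6 to 8.

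For 18 genes the array holds further probe sets, 24 in all, of which 21 were tested. Over hours 1 to 8, 15 of the 21 had the sign of the brightest one. The one called higher was the second of Mrpl12, and those called lower were the second of Mrpl52 and the second of Mrpl10, the protein that anchors the stalk; 0 were called against the direction of a called brightest probe set. For Mrpl10 the brightest probe set gave −0.075 (limma adjusted p = 0.0862) and the second −0.16 (adjusted p = 0.0124). Probe sets of Mrpl51 differed in sign, from −0.060 at the brightest to 0.11 at the second, and those of Mrpl57 likewise (−0.052 and 0.098), with none of them called.

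How far the letters decide these calls was read from several fits. Same-numbered arrays deviate together, so the letter was also entered as a replicate block: 20 members were then called over hours 1 to 8 (12 higher, 8 lower), 27.4% against 26.9% of all probe sets. With 1 mean difference per letter as the unit, which leaves only 3 values, 0 members were called, against 0.692% of all probe sets. Without letter a 20 members were called (19.1% of all probe sets), without letter b 0 (3.12%), and without letter c 1 (5.87%). Set against each culture's own time 0, 0 were called, and 0 of all probe sets. The number of members above 0 moved with the letter too: 22 of 73 in letter a (median −0.065), 39 in b (0.016) and 51 in c (0.053), while all tested genes had medians from −0.0056 to −0.0025. Within letter b the control arrays also stepped between hours 5 and 6, and members did so in both directions. Mrpl23 and Mrpl38 fell, as did Mrpl4 (9.68 to 9.39). Mrpl18 (10.95 to 11.37), Mrpl32 (9.06 to 9.49) and Mrpl16 (9.57 to 9.92) rose. These members are examples and not a full list. Whether these differences between letters and within letter b lie in the cells or the plates was not tested.

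The hours of the insulin response were then compared, to ask whether members moved early or late. Over hours 5 to 8, 6 members were called higher with insulin (8.22%, against 4.02% of all probe sets) and 1 lower (1.37%, against 5.33%), together 9.59% against 9.35%. With the replicate block 15 were called (14 higher, 1 lower), 20.5% against 21.9%. With 1 mean per letter 1 member was called, Mrpl12, 1.37% against 2.96%. Without letter a 8 were called (7.46% of all probe sets), without b 1 (4.53%) and without c 3 (6.73%). The members' median was 0.037, and that of all tested genes −0.0013.

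Mrpl12 gave the largest late difference among those called. On the 12 control arrays of hours 5 to 8 it lay between 10.3 and 10.9 (median 10.6), and on the 12 insulin arrays between 10.8 and 11.3 (median 11.0). All 12 pairs were higher with insulin, and the groups overlapped little. The difference was 0.37 ± 0.087 (SE; limma adjusted p = 0.00390), with 0.35, 0.35 and 0.40 in the letters. At hour 8 its control arrays read 10.46, 10.64 and 10.29 in letters a, b and c, and its insulin arrays 11.05, 11.00 and 10.80, without overlap.

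Mrps2, a small subunit protein with a bacterial relative, lay between 8.55 and 9.02 (median 8.72) in late control and between 8.49 and 9.64 (median 9.05) in late insulin arrays. Insulin was the higher in 11 of 12 pairs, with overlapping ranges. Its difference was 0.34 ± 0.10 (SE; limma adjusted p = 0.0223), from 0.62 in letter a to 0.093 in c. Its other 2 probe sets, both dimmer, gave 0.053 and 0.088 and were not called.

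Mrpl47, whose bacterial relative lies beside the peptide exit, lay between 7.61 and 8.26 (median 7.73) in late control and between 7.89 and 8.28 (median 8.10) in late insulin arrays. The ranges overlapped and 11 of 12 pairs were higher with insulin. The late difference was 0.29 ± 0.092 (SE; limma adjusted p = 0.0348).

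Mrps18b was 0.28 ± 0.063 (SE; limma adjusted p = 0.00229) and Mrps34 0.22 ± 0.057 (adjusted p = 0.00851) over hours 5 to 8, with 11 and 12 of 12 pairs higher. Mrps27, a small subunit protein with pentatricopeptide repeats, which bind RNA, was 0.21 ± 0.053 (adjusted p = 0.00877). The one member called lower, Mrpl34, was −0.19 ± 0.048 (adjusted p = 0.00634), lower in 11 of 12 pairs, though at −0.025 in letter c.

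Over hours 1 and 2 no member was called, and no probe set of the array either (0%); at an unadjusted p under 0.05 there were 11 members and 2079 of all probe sets. All 11 members were lower with insulin: Mrpl38, Mrpl23, Mrps27, Mrps18a, Mrps24, Mrpl35, Mrps35, Mrpl28, Mrpl52, Mrpl34 and Mrps5. In total 57 of 73 members were below 0, with a median of −0.066 against −0.0059 for all tested genes. This held in letters a (69 below 0) and c (56 below 0) but not in b (29 below 0). All tested genes had medians of −0.040 in letter a, with 7393 of 11577 below 0, 0.0040 in b and −0.0049 in c. Oxidative phosphorylation subunits had 60 of 76 below 0 at these hours and a median of −0.11. With the replicate block 4 members were called, all lower, 5.48% against 1.46%, and without letter a likewise 4 (1.99% of all probe sets). Mrpl23 at hour 2 shows the size: its control arrays read 10.87, 11.20 and 10.94 in letters a, b and c and its insulin arrays 10.75, 10.57 and 10.45, without overlap. Before insulin, at time 0, letter b of Mrpl23 already read 11.07 in control plates and 10.82 in those set aside for insulin.

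**Figure D3:**
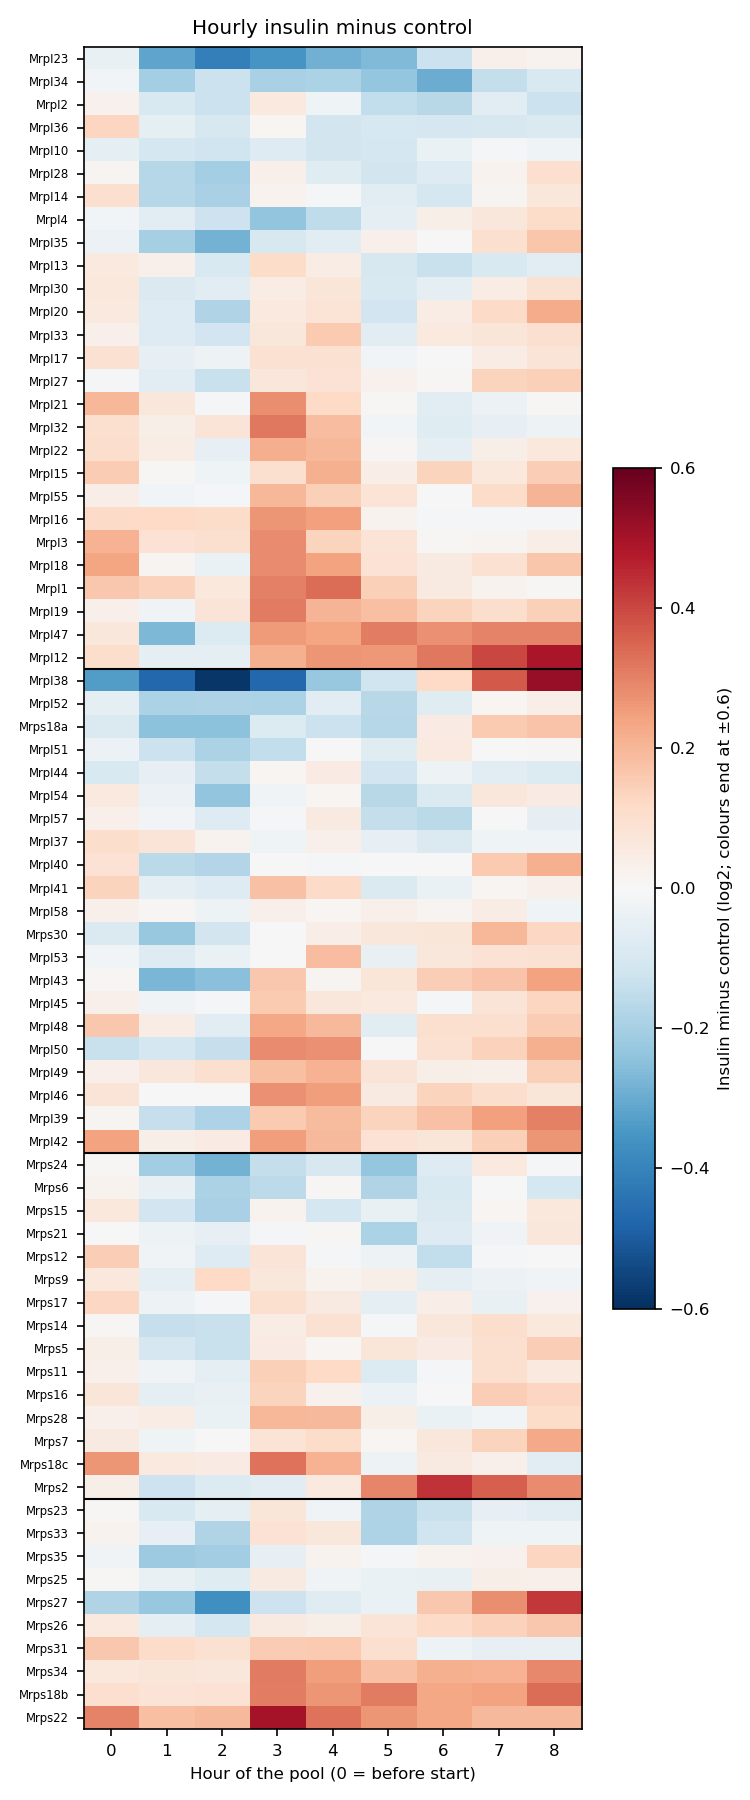
Heat map of insulin minus control on the log2 scale for each member (rows, grouped by subunit and bacterial relative, with black lines between the groups) at time 0 and at each hour (columns). Blue is lower and red higher in the insulin culture, with colours ending at 0.6 in either direction. Hours 1 and 2 are mostly blue, and hours 3, 4, 7 and 8 mostly red. Time 0, before insulin, is mostly red too, with 57 of 73 members above 0. Hours 5 and 6 are mixed, with 32 and 37 above 0. Hour 3 compares 2 insulin with 3 control arrays.

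The change of the insulin difference from hours 1 and 2 to hours 5 to 8 was called for 2 members, Mrps27 and Mrpl35, 2.74% against 1.84% of all probe sets. Mrps27 was lower with insulin at hour 2, where control arrays read 8.22, 8.27 and 8.20 in letters a, b and c and insulin arrays 7.98, 7.86 and 7.74. At hour 8 it was higher with insulin, with 7.97, 7.85 and 7.79 in control and 8.45, 8.24 and 8.20 in insulin arrays. Neither hour had overlapping groups. The change was 0.50 ± 0.092 (SE; limma adjusted p = 0.00161), with 0.46, 0.54 and 0.51 in the letters. Its other probe sets changed by 0.30 (adjusted p = 0.163) and 0.37 (adjusted p = 0.0401). Before insulin, at time 0, it stood at −0.18 ± 0.11 (SE; adjusted p = 1.00). Mrps27 was also the only member called at a single hour, hour 8, at 0.42 ± 0.11 (adjusted p = 0.0449), 1.37% of members against 0.72% of all probe sets.

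Mrpl35, a large subunit protein with a bacterial relative, lay between 9.56 and 9.93 in the 6 control arrays of hours 1 and 2 and between 9.42 and 9.59 in the 6 insulin arrays. In hours 5 to 8 it lay between 9.44 and 9.78 in control and between 9.60 and 9.83 in insulin arrays. The early groups overlapped only at their edges and the late groups widely. The change was 0.31 ± 0.085 (SE; limma adjusted p = 0.0434), with 0.24, 0.30 and 0.41 in the letters.

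Across all members the change was above 0 in 56 of 73, with a median of 0.10, against 0.00071 for all tested genes. That shift was uneven over the repeats: 67 members were above 0 in letter c (median 0.23), 46 in letter a (0.056) and 36 in letter b (−0.0051). With the replicate block 14 members were called, all with a rise from early to late, 19.2% against 12% of all probe sets. Without letter a 3 were called (2.3% of all probe sets), without letter b 0 (0.0182%) and without letter c 0 (0.355%), so the calls of Mrps27 and Mrpl35 were lost there, with changes of 0.49 and 0.32 without b and 0.50 and 0.27 without c.

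Hour by hour the members' median difference was −0.052 and −0.076 at hours 1 and 2, 0.070 at hour 3, 0.060 at hour 4, −0.017 at hour 5, 0.00081 at hour 6, 0.045 at hour 7 and 0.076 at hour 8. The value of hour 3 rests on unequal arrays, since letter a has no insulin array there, and within letters it was −0.065 in b and −0.00018 in c. Under the test of any difference over the 8 hours 2 members were called, Mrps27 and Mrpl23, 2.74% against 2.42%, with 10 under the replicate block (11.5% of all probe sets), 5 without letter a (3.57%), 0 without letter b (0.396%) and 0 without letter c (0.824%). At time 0, before insulin, no member was called, with 0% of all probe sets called and 205 of them at an unadjusted p under 0.05 (0 members). The median at time 0 was 0.036, with 57 of 73 above 0, against 0.0094 for all genes.

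**Figure D4:**
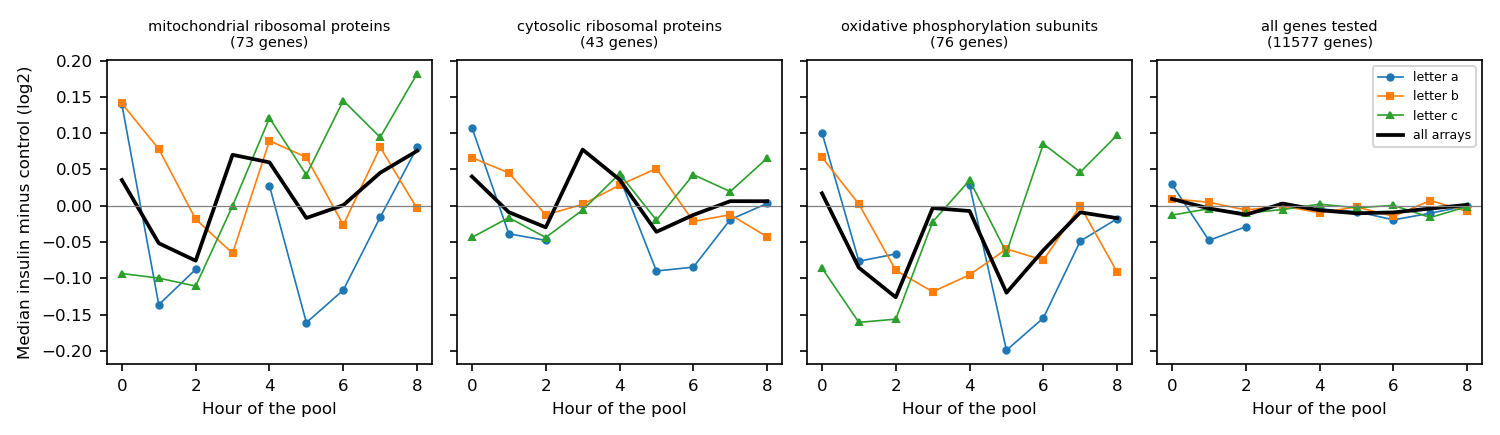
Median insulin minus control on the log2 scale at each hour for the mitochondrial ribosomal proteins and, for comparison, cytosolic ribosomal proteins, oxidative phosphorylation subunits and all tested genes; coloured lines are letters a, b and c and the black line all arrays. In the members the letters spread from −0.16 to 0.18, and letter a has no point at hour 3.

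Members were also followed within each culture from time 0 to hours 5 to 8, which in the control culture follows the serum-free hours alone and in the insulin culture those hours together with insulin. In the control culture 0 members were called, while 6.48% of all probe sets were, and 9 members had an unadjusted p under 0.05, as did 4122 of all probe sets. Over the same course 10 of 10 markers of proliferating cells were above 0 (median 0.31, 0 called). Of the genes listed as myoblast markers, Pax7, Pax3 and Myf5 had no probe set with their symbol alone. Myod1 had such a probe set but was too dim to be tested (4.12). The other 2, Id1 and Id3, were called lower, with differences from −2.24 to −1.25. At time 0 Id1 and Id3 stood 0.31 to 0.73 higher in the plates set aside for insulin than in control plates. The part of these markers in the members' values was not tested. The highest differences were 0.27 ± 0.10 for Mrpl2 (SE; limma adjusted p = 0.114) and 0.26 ± 0.21 for Mrps18c, and the lowest −0.49 ± 0.25 for Mrpl38 and −0.35 ± 0.16 for Mrps2. Mrpl12, which was higher with insulin in these hours, stood at −0.32 in the control culture, one of the 9. With the replicate block 6 were called (19.4% of all probe sets), and without letter a 4 (8.69%). In the insulin culture 0 members were called as well, against 1.46% of all probe sets, and 2 with the replicate block (8.56% of all). There 2 members and 2295 of all probe sets had an unadjusted p under 0.05. Id1 and Id3 were called lower in this course too (median −2.06), and 8 of 10 markers of proliferating cells were above 0 (median 0.21). The highest there were Mrpl50 (0.26 ± 0.17) and Mrps27 (0.22 ± 0.084), and the lowest Mrps6 (−0.28 ± 0.17) and Mrpl41 (−0.15 ± 0.16). Letters differed in sign again: in the control culture 66 of 73 members were above 0 in letter a, 49 in b and 25 in c.

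Over the residuals of all arrays the members varied together, with a median pairwise correlation of 0.486 over 2628 pairs and 81.7% of the pairs above 0. The points share arrays and may share days, so this is a description only.

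The genes that work with the mitochondrial ribosome were read in the same comparison over hours 1 to 8, from lists chosen for their roles. Of all tested probe sets 5.53% were called higher and 6.63% lower in this comparison, and with lists this short the counts are given as a description. Among 5 subunits that carry other names, Ptcd3, a small subunit protein with pentatricopeptide repeats, was higher by 0.12 ± 0.035 (SE; limma adjusted p = 0.0212). Of 28 assembly factors tested, 4 were higher: Mrm3 (0.22) and Mrm2 (0.18), which methylate the large rRNA, Fastkd2 (0.21), which binds it, and Mterf3 (0.20), which acts in ribosome assembly. The letters of Mrm2 did not share a sign, with −0.011 in a and 0.25 in b and c alike. Fastkd2 stood at 0.013, 0.32 and 0.25 in letters a, b and c, and Mrm3 and Mterf3 were above 0 in each letter. The one assembly factor called lower, Mettl8 (−0.14), is known to methylate mitochondrial tRNAs. Of 14 translation factors, Ptcd1 was higher (0.14) and Mtrfr, of the release factor family, lower (−0.21).

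Of 12 mitochondrial aminoacyl-tRNA synthetases, Rars2 (0.27) and Ears2 (0.11) were higher. None of 11 genes of mitochondrial DNA transcription and replication was called, Tfam, which packages mitochondrial DNA, among them at 0.0089 ± 0.037 (SE; limma adjusted p = 0.909). The medians of these 5 lists were 0.056, 0.044, 0.036, 0.030 and 0.028.

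Among 10 nuclear regulators 3 were higher. Myc, a growth regulator that acts on many ribosome genes, lay between 6.66 and 9.0 (median 7.45) in control and between 7.34 and 8.90 (median 8.12) in insulin arrays. The ranges overlapped. Its difference was 0.61 ± 0.12 (SE; limma adjusted p = 0.000287), with 0.75, 0.54 and 0.57 in the letters. Pprc1, a coactivator of the Ppargc1 family, was higher by 0.45 ± 0.073 (adjusted p = 3.6e-05), with 0.51, 0.46 and 0.43 in the letters. Its relative Ppargc1b was higher by 0.24 ± 0.069 (adjusted p = 0.0175). Ppargc1a, the family member most tied to muscle mitochondria, was 0.0044 ± 0.071 (adjusted p = 0.977), Nrf1 0.068 ± 0.034 (adjusted p = 0.202) and Gabpa 0.012 ± 0.054 (adjusted p = 0.917).

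**Figure D5:**
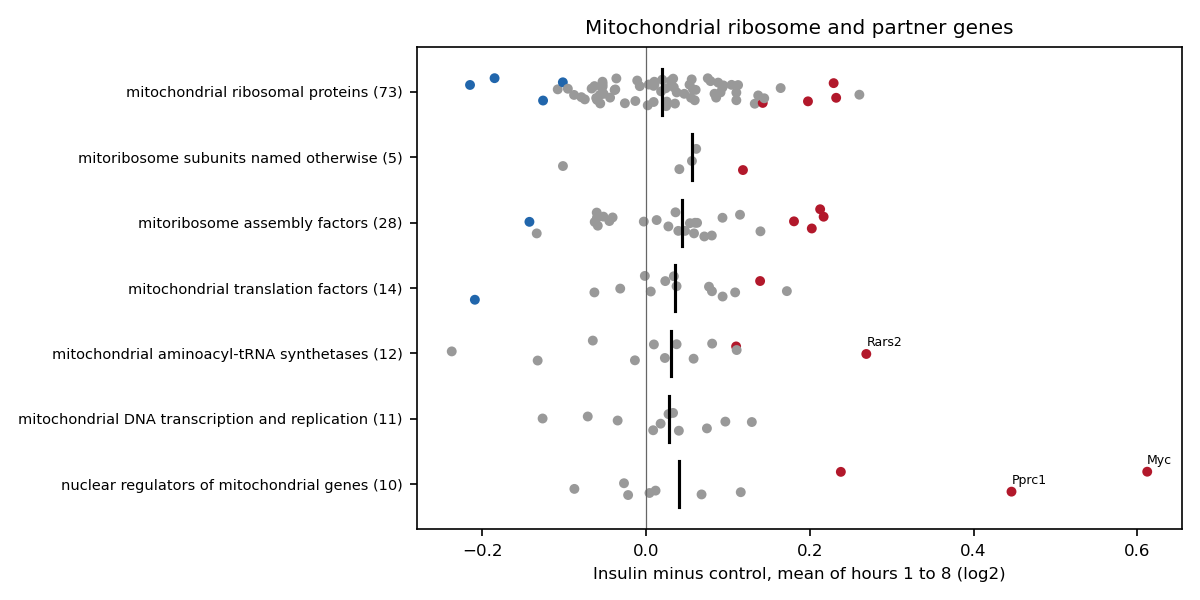
Insulin minus control on the log2 scale, mean of hours 1 to 8, for each tested member and for genes of partner lists (numbers of genes in brackets; black bars are list medians). Red points were called higher, blue points lower and grey points not called; Myc (0.61) and Pprc1 (0.45) lie outside the range of the 73 members.

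Beside them, 43 cytosolic ribosomal proteins had 2 called higher and 2 lower, with a median of 0.0050. Of 76 oxidative phosphorylation subunits, which include nuclear partners of the proteins that the mitochondrial ribosome makes, 7 were called lower and 0 higher, where 6.63% of all probe sets were lower, with a median of −0.047 and 65 of 76 below 0; the members' median was 0.020 with 28 of 73 below 0. All tested genes had 5969 of 11577 below 0. By letter, the medians of the oxidative phosphorylation subunits were −0.084 in a, −0.076 in b and −0.027 in c. Those of the members were −0.065, 0.016 and 0.053. In letter a both lists lay mostly below 0, with 65 of 76 and 51 of 73. In letter c 43 of the 76 subunits were below 0. A test of the difference between these lists was not made.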

How the data were processed

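RNA of 53 pools was hybridised to Affymetrix rat expression arrays. The deposited values are log2 levels that the authors made by background subtraction, quantile normalization and RMA summarization; versions are not given in the sources used here. Of 31099 probe sets, 57 manufacturer controls were left out. Those with the highest mean level were tested, as many as the authors kept by detection calls, which were not used here. Controls aside, 20826 probe sets have 1 gene symbol, 436 several and 9780 none.

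Group means of culture and hour were fitted with limma (version 3.58.1, R 4.3.3; lmFit, contrasts and eBayes with trend), with Benjamini-Hochberg adjustment over all tested probe sets and a threshold of 0.05. SE and 95% intervals come from that fit, which has no term for the letter, and each hour weighs equally. The members, gene lists and tests were chosen with earlier results of these data known, and Mrpl34, Mrps18b and Mrps34 are also in a list that the study selected on these samples, so their calls are not independent evidence.

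Genes are named by this rule: per comparison, up to 5 called members that rose most and 5 that fell most, of 1 sign in all letters (where fewer than 2 were called, the 2 highest and 2 lowest), those of the study's list, those with special roles, those whose probe sets differ, the dimmest member, and up to 4 called genes per partner list. Others (Mrpl19, Mrpl23, Mrps22, Mrps27 over hours 5 to 8 and the early genes) were named after their values were seen. Arrays of the same letter and hour were taken as pairs. The labels give the letters only, and that a letter is the same day throughout is inferred from the protocol. In all 26 pairs the deviations from group means correlated, from 0.207 to 0.787. The fit with letters as a replicate block is given where it changes a count. On simulated data for hours 1 to 8, with 50 probe sets changed per size, 4 were recovered at a log2 change of 0.1, 21 at 0.2, 44 at 0.4 and 50 at 0.8, with 4 false calls. The simulated noise was independent between arrays, without the shared deviations of paired arrays. These counts therefore do not measure recovery or false calls under such deviations. The number of arrays limits the precision, with SE of members from 0.023 to 0.112. Alternatives were the blocks, 1 mean per letter, leaving out each letter or letter b at hours 0 to 5, no filter, a second quantile normalization, no trend, the mean of a gene's probe sets, and differences relative to time 0. Sequences are from RefSeq promoters of build GRCr8.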

Additional observations from a re-analysis of the deposited data

Results flagged for a closer look

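The insulin difference of 2 members changed from hours 1 and 2 to hours 5 to 8 by the test of that change itself. For Mrps27 it rose by 0.50 on the log2 scale, and for Mrpl35 by 0.31, in each of the 3 letters. These are 2.74% of members, against 1.84% of all probe sets. Both calls were lost without letter b, without letter c, without letter b at hours 0 to 5 and with 1 mean per letter.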

How the results depend on the processing

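The 17 values called over hours 1 to 8, over hours 5 to 8 and for the change kept their direction under the alternatives run. They also kept their call in 17 cases with either replicate block, 17 without trend, 16 with the mean of probe sets, 15 without a filter, 15 after quantile normalization, 9 without letter b at hours 0 to 5, 13 without letter a, 1 without b, 4 without c, 1 with 1 mean per letter and 0 of 15 relative to time 0. The calls at any hour and at hour 8 were not followed gene by gene. Counts of members called over hours 1 to 8 (8) became 20 with the replicate block, 21 with it within hours, 0 with 1 mean per letter, 4 without letter b at hours 0 to 5, 0 relative to time 0, and 0 to 20 without 1 letter. Over hours 5 to 8 (7) they became 15, 14, 1 and, relative to time 0, 0, and 1 to 8 without 1 letter. Over hours 1 and 2 (0) the replicate blocks gave 4 and 1, and leaving out a letter 0 to 4. For the change (2) the blocks gave 14 and 13, 1 mean per letter 0, without letter b at hours 0 to 5 0, no filter 1, quantile normalization 1, and leaving out a letter 0 to 3. For any hour (2) the blocks gave 10 and 10, without letter b at hours 0 to 5 0, quantile normalization 1, and leaving out a letter 0 to 5. For the control course (0) the replicate block gave 6, the mean of probe sets 1 and leaving out a letter 0 to 4. For the insulin course (0) the block gave 2, quantile normalization 1 and no trend 1. The share of all probe sets called moved too. With the replicate block it went from 12.2% to 26.9% over hours 1 to 8 and from 9.35% to 21.9% over hours 5 to 8. For the change it went from 1.84% to 12%. Shares are not given here for every alternative, so these counts describe the fits and are no result about the members. The cause of these shifts was not tested.

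Signs turned only for members not called: relative to time 0, Mrpl58 was −0.021, Mrps18a 0.026, Mrps18c −0.19, Mrps22 −0.039 and Mrpl38 0.23. Without letter b at hours 0 to 5, Mrpl58 was −0.0026, Mrps18a 0.0089 and Mrpl38 0.11. Leaving out 1 letter gave −0.0050 to 0.033 for Mrpl58, −0.0071 to 0.042 for Mrps30, −0.13 to 0.019 for Mrps18a and −0.35 to 0.094 for Mrpl38. The test of any hour with 1 mean per letter and the within-hour block of the courses were not run. The 3 letters are repeats of 1 cell line, so the spread between cell lines or animals is not measured. Arrays of 1 letter are not independent of each other.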
